A study of Mus musculus with 8 samples.

Results

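The subject here is the difference between 2 hairpin effects in mouse liver: the effect of an adenoviral short hairpin RNA against Rictor, set against its control lacZ2, minus the effect of one against Dnajb9, set against its control lacZ1. Every gene of the count tables was a member, 24062 entries in all, and 13767 of them had enough reads to be tested. A positive difference means that a gene stood higher after the Rictor hairpin than after the Dnajb9 hairpin, each relative to its own control. All animals were lean wild-type C57BL/6 mice that received 0.1 OD of adenovirus, were killed 1 week later after 6 h of food withdrawal, and gave liver RNA depleted of ribosomal RNA. The lacZ1 and shDnajb9 mice were 3 months old and the lacZ2 and shRictor mice were 4 months old, so age and arm cannot be told apart. Each of the 4 groups held 2 libraries. The labels leave unsaid whether lacZ means the bacterial gene or a hairpin against it, and whether each library stands for a mouse of its own, and p-values therefore cover only the spread between these libraries. In whole liver, fewer cells of a type and less RNA per cell cannot be told apart.

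Dnajb9 encodes ERdj4, a J-domain co-chaperone of the endoplasmic reticulum (ER) that works with the Hsp70 chaperone BiP and restrains the stress sensor IRE1. Rictor is the subunit that defines mTOR complex 2, the kinase complex that phosphorylates AKT and SGK downstream of insulin. In hepatocytes that pathway is known for controlling glucose output, through the transcription factor FoxO1, and lipid synthesis, through SREBP1c. The title of the series links a chaperone with nutrient sensing through this complex, and the difference of the 2 arms asks which transcripts responded unequally to the 2 hairpins.

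Reads assigned to genes numbered 6426164 to 11383532 per library, and the fewest were in shDnajb9 replicate 1. The targeted transcripts were examined first. Dnajb9 had 30.6 and 38.0 CPM (counts scaled to the normalised library total) in lacZ1 against 22.0 and 20.3 in shDnajb9, with 40.4 and 38.8 in lacZ2 against 61.1 and 43.8 in shRictor. Both shDnajb9 libraries were the lowest of the 8, and both shRictor libraries were the highest. The difference of the arms was 1.10 on the log2 scale (SE 0.343, unadjusted p = 0.0067, adjusted p = 0.394, edgeR), which did not pass. Against its own control, Dnajb9 stood at -0.70 in the Dnajb9 arm (adjusted p = 0.056, edgeR), which did not pass. In the Rictor arm it stood at 0.41 (adjusted p = 0.271, edgeR), which did not pass either. Directly between the hairpin groups Dnajb9 was higher in shRictor by 1.31 (adjusted p = 0.0389, edgeR). Rictor had 65.4 and 68.8 CPM in lacZ1 against 33.3 and 63.4 in shDnajb9, with 52.3 and 65.2 in lacZ2 against 40.1 and 42.0 in shRictor. The arms differed by -0.06 for Rictor (95% interval -0.91 to 0.80, adjusted p = 0.97, edgeR). Its level was below the control mean in both hairpin groups, by -0.46 and -0.52 (adjusted p = 0.239 and 0.231, edgeR), and neither arm passed.

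Many genes were called in each arm, and few of them differed between the arms by the test. With edgeR, 3325 of 13767 genes were called at an adjusted p under 0.05 in the Dnajb9 arm (24.2%) and 2508 in the Rictor arm (18.2%). Of the 1516 genes called in both arms in the same direction, none had a called difference, and 80 (5.28%) had an unadjusted p under 0.05. Another 2785 genes were called in exactly 1 arm, 1801 under the Dnajb9 hairpin and 984 under the Rictor hairpin. No gene of these 2785 had a called difference either, although 845 of them (30.3%) had an unadjusted p under 0.05. A call in 1 arm alone was therefore not a shown difference between the hairpins. Opposite calls were found for 8 genes, among them Ifit2, Kcnk1, Mfsd2a, Oas1g and Slc17a8.

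The difference itself was called for 1 gene, or 0.00726% of those tested, and that gene was higher. For lower genes the count was 0 by edgeR, with 751 (5.46%) at an unadjusted p under 0.05, beside 744 higher genes (5.4%) at the same level. DESeq2 called 43 genes, 19 higher and 24 lower, and limma-voom called 1. Of the 40 genes named singly, DESeq2 called 20. The median standard error of the difference was 0.41 on the log2 scale, against 0.293 and 0.288 for the single arms. The 95% interval lay within 1 log2 unit of 0 for 2936 genes (21.3%), so a doubling was within the interval for most others. The libraries bore unequally on these counts: without shDnajb9 replicate 2 edgeR called 17 genes, without lacZ2 replicate 2 it called 5, without shRictor replicate 1 it called 2, and without lacZ1 replicate 2, lacZ2 replicate 1 or shRictor replicate 2 it called 0.

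**Figure D1:**
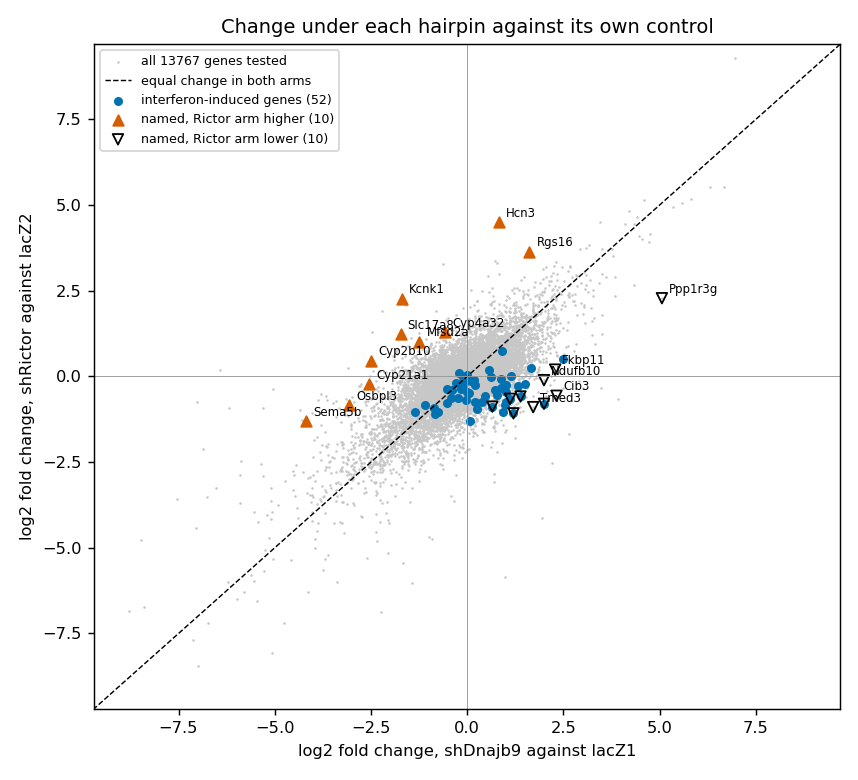
Each point is a gene, with its log2 fold change in shDnajb9 against lacZ1 on the x axis and in shRictor against lacZ2 on the y axis, 2 libraries per group. Most genes lie along the dashed line of equal change, while Slc17a8, Mfsd2a and Kcnk1 lie in the upper left quadrant and part of the interferon-induced genes in the lower right.

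The called gene was Slc17a8, which encodes VGLUT3, a vesicular glutamate transporter best known from neurons. It lies on mouse chromosome 10 from 89574020 to 89621253 on the minus strand (GRCm38), and 0.75% of its sequence is shared with other genes. The 250 bases before its start (RefSeq, GRCm38.p6, chr10:89621250-89621499, minus strand) are shown because Slc17a8 is the gene the called difference rests on, and no motif is marked.
Slc17a8: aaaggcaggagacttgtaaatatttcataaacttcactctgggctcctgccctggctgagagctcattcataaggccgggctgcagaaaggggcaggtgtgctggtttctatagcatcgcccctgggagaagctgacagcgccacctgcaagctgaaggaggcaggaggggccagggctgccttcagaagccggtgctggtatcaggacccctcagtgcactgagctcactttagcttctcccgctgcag

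The Dnajb9 arm took Slc17a8 from 31.0 and 35.1 CPM in lacZ1 down to 9.64 and 10.2 in shDnajb9. The Rictor arm took it from 31.8 and 39.5 CPM in lacZ2 up to 79.3 and 88.4 in shRictor. The controls overlapped, while the hairpin groups lay on opposite sides of them. The transcript fell by 1.73 on the log2 scale under the Dnajb9 hairpin (SE 0.244, adjusted p = 0.000469) and rose by 1.23 under the Rictor hairpin (SE 0.224, adjusted p = 0.00252, edgeR). The difference was 2.97 (SE 0.332, adjusted p = 0.0085, edgeR), or 7.81-fold. Between the lacZ groups the gene differed by 0.11. Slc17a8 no longer passed when lacZ1 replicate 2 (2.89, adjusted p = 0.0686), lacZ2 replicate 1 (2.83, adjusted p = 0.163) or shRictor replicate 2 (2.89, adjusted p = 0.0511, edgeR) was left out. Nor did it pass without shDnajb9 replicate 1 and lacZ2 replicate 1 together (2.79, adjusted p = 0.193) or with a replicate block within each arm (2.98, adjusted p = 0.0771, edgeR).

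The other genes described one by one did not pass, and they are the 10 on each side with the smallest p among genes of sufficient level whose library differences did not overlap between the arms. Such separation was found for 10.8% of all genes on the higher side and 12.5% on the lower side. All 19 had an adjusted p between 0.122 and 0.163 (edgeR). Within the arms, 18 of the 20 genes, Slc17a8 included, were called under the Dnajb9 hairpin and 10 under the Rictor hairpin. Over all genes, 24.2% and 18.2% were called in these arms. For 19 of the 20 the hairpin groups differed by more than the control groups did. The 20 were chosen by the size and separation of this same difference. These counts therefore follow largely from the choice and add no support.

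**Figure D2:**
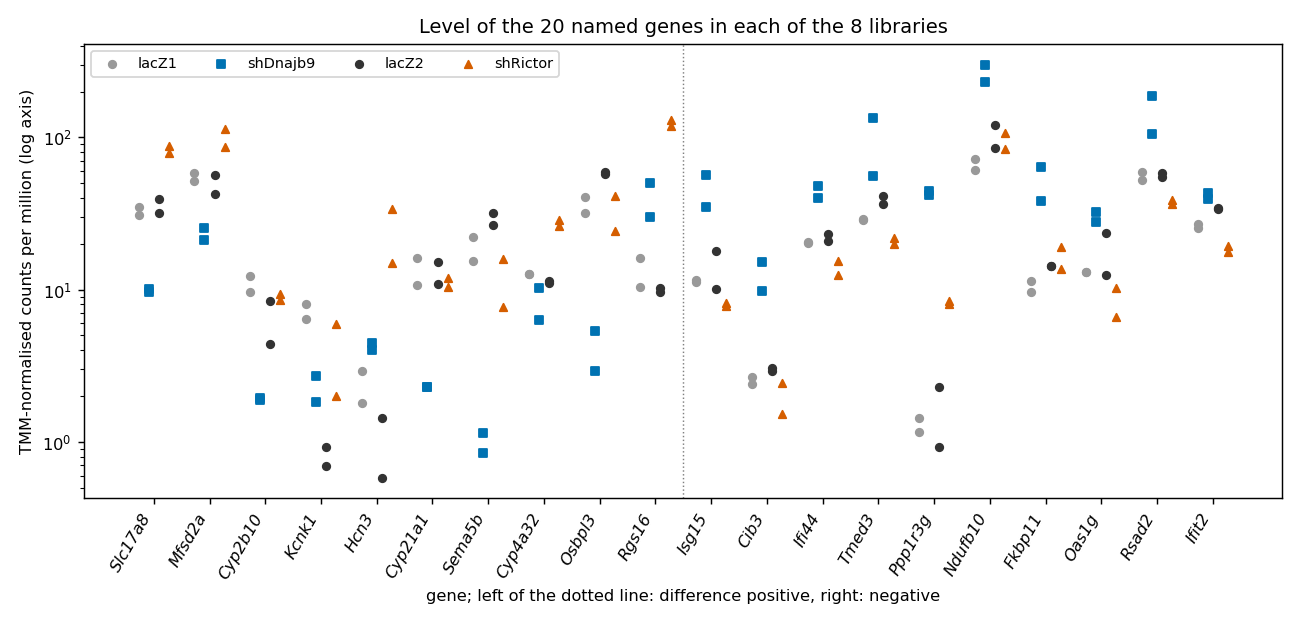
CPM on a log axis for the 20 genes, with 1 point per library and 2 libraries per group. For Slc17a8, Mfsd2a and Isg15 the control libraries lie together and the hairpin groups separate around them, whereas for Kcnk1 the lacZ1 and lacZ2 libraries already differ.

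On the higher side, Mfsd2a, a transporter of lysophosphatidylcholine, had 52.0 and 58.5 CPM in lacZ1 against 21.2 and 25.4 in shDnajb9, with 42.6 and 56.4 in lacZ2 against 86.1 and 114 in shRictor. As for Slc17a8, the hairpin groups lay below and above controls that overlapped. Mfsd2a fell by 1.24 in the Dnajb9 arm (adjusted p = 0.00468) and rose by 1.02 in the Rictor arm (adjusted p = 0.0126), with a difference of 2.26 (SE 0.352, adjusted p = 0.122, edgeR). It passed without shDnajb9 replicate 2 (2.40, adjusted p = 0.0438) and with DESeq2 (2.26, adjusted p = 0.000265).

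Cyp2b10, a cytochrome P450 induced through the receptor CAR, had 9.57 and 12.3 CPM in lacZ1 against 1.89 and 1.94 in shDnajb9, with 4.42 and 8.46 in lacZ2 against 9.30 and 8.61 in shRictor. Its libraries were low in shDnajb9 alone, and the difference of 2.95 (SE 0.5, adjusted p = 0.163, edgeR) came with a fall of 2.50 in that arm (adjusted p = 0.000821) beside 0.45 in the Rictor arm (adjusted p = 0.364). Osbpl3, an oxysterol-binding-protein relative, and Sema5b, a semaphorin, stood below the control libraries of their arm in both hairpin groups. Osbpl3 went from 40.5 and 32.1 CPM in lacZ1 to 2.94 and 5.37 in shDnajb9, and from 59.3 and 57.4 in lacZ2 to 24.1 and 41.2 in shRictor. Sema5b went from 22.2 and 15.4 CPM to 0.839 and 1.14 under the Dnajb9 hairpin, and from 26.5 and 31.9 to 7.65 and 15.9 under the Rictor hairpin. The shDnajb9 libraries were the lowest of the 8 for both genes. Sema5b fell in both arms, by 4.18 and 1.30 (adjusted p = 0.000123 and 0.0147), while Osbpl3 fell by 3.07 in the Dnajb9 arm (adjusted p = 0.00013) and stood at -0.83 in the Rictor arm (adjusted p = 0.0646, edgeR).

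Rgs16, which shortens signalling by G-protein-coupled receptors, rose in both arms. It had 10.4 and 16.1 CPM in lacZ1 against 30.0 and 49.9 in shDnajb9, with 9.65 and 10.2 in lacZ2 against 119 and 130 in shRictor. The rise was 1.61 with the Dnajb9 hairpin (adjusted p = 0.0025) and 3.64 with the Rictor hairpin (adjusted p = 4.84e-05), a difference of 2.03 (SE 0.411, adjusted p = 0.163, edgeR).

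Kcnk1, Hcn3, Cyp21a1 and Cyp4a32 need caution. Kcnk1, a potassium channel, had 6.38 and 7.99 CPM in lacZ1 but 0.698 and 0.931 in lacZ2. Its difference of 3.97 thus came with a control difference of -3.09 and with 0.88 between the hairpin groups. The exons of Hcn3, a cation channel gene, overlap those of Pklr, the liver pyruvate kinase, on the opposite strand. The strand setting of the counts is not known, so Hcn3 reads (33.7 and 15.1 CPM in shRictor, 0.581 to 4.45 in the other 6 libraries) cannot be told apart from Pklr reads. Pklr itself rose in both arms, by 1.46 (adjusted p = 0.00667) and 2.48 (adjusted p = 0.000384, edgeR). Of the sequence of Cyp21a1 and Cyp4a32, 21.3% and 43.8% is shared with other genes, and their counts are uncertain.

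On the lower side 5 of the 10 genes, Isg15, Ifi44, Oas1g, Rsad2 and Ifit2, are interferon-induced and are described with their group. Tmed3 and Fkbp11 belong to the secretory pathway, as a cargo receptor and an ER prolyl isomerase. Fkbp11 had 9.57 and 11.3 CPM in lacZ1 against 63.9 and 38.4 in shDnajb9, with 14.3 and 14.2 in lacZ2 against 19.2 and 13.6 in shRictor. It stood apart in shDnajb9 alone, where it rose by 2.28 (adjusted p = 0.000264), beside 0.20 in the Rictor arm (adjusted p = 0.689), and the difference was -2.09 (SE 0.406, adjusted p = 0.163, edgeR). Tmed3 was at 135 CPM in shDnajb9 replicate 1 and 55.6 in replicate 2, at 28.7 and 29.1 in lacZ1, at 41.3 and 36.5 in lacZ2, and at 20.01 and 21.7 in shRictor. It rose by 1.71 in the Dnajb9 arm (adjusted p = 0.00404) and stood at -0.90 in the Rictor arm (adjusted p = 0.0855, edgeR).

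Ppp1r3g, whose product brings a phosphatase to glycogen particles, rose in both arms and far more in one. Its level was 1.15 and 1.43 CPM in lacZ1 and 0.930 and 2.29 in lacZ2, against 44.4 and 41.7 in shDnajb9 and 8.36 and 8.02 in shRictor. All 4 hairpin libraries exceeded all 4 controls, and the shDnajb9 pair exceeded the shRictor pair. The arms were 5.06 (adjusted p = 1.81e-05) and 2.28 (adjusted p = 0.000854), and their difference was -2.78 (SE 0.516, adjusted p = 0.163, edgeR).

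Ndufb10, a subunit of respiratory complex I, had 61.4 and 71.9 CPM in lacZ1 against 301 and 231 in shDnajb9, with 85.7 and 121 in lacZ2 against 107 and 84.5 in shRictor. Its shRictor libraries overlapped their controls, and its difference was -2.10 (SE 0.393, adjusted p = 0.163, edgeR). Cib3, a calcium and integrin-binding protein gene, rose in shDnajb9 from 2.66 and 2.38 to 9.85 and 15.2 CPM, and lay between 1.53 and 3.05 CPM in the 4 libraries of the other arm.

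Interferon-induced genes were the list with the most members on the lower side. These genes are switched on when interferon receptors signal to transcription factors that bind a short promoter element, the interferon-stimulated response element (ISRE), and many of their products restrict viruses or detect viral RNA. Of 52 tested, 25 were lower in the Rictor arm than in the Dnajb9 arm at an unadjusted p under 0.05 and 0 were higher, beside 5.46% and 5.4% of all genes. No member passed the adjusted test (edgeR), and the smallest adjusted p was 0.122, for Isg15. DESeq2 called Isg15, Rsad2, Oas1g, Ifi44, Ifit1, Oas1a, Ifit2, Psmb8, Bst2 and Irf7, while limma-voom called no gene but Slc17a8. The median difference of the list was -0.64, beside -0.01 over all genes tested. Within the arms, 17 of the 52 rose and 3 fell under the Dnajb9 hairpin (all genes: 11.6% and 12.6%), and 0 rose and 6 fell under the Rictor hairpin (all genes: 7.31% and 10.9%).

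The promoters shown next are from members with a large difference that also carried the ISRE (GAAA, any 2 bases, GAAA). Matches are in capitals, and read TTTC, any 2 bases, TTTC on the opposite strand. Ifi44, Ifit2, Psmb8 and Irf7, also called by DESeq2, had no match in the bases searched. The promoters shown therefore do not stand for all members with a large difference. Overlapping matches are merged into one run of capitals. Each line ends at the base before the RefSeq start (GRCm38.p6) and covers 130 bases: Isg15 at chr4:156200819-156200948 (minus strand, 3 overlapping matches), Ifit1 at chr19:34640759-34640888 (plus strand, 2 matches), Rsad2 at chr12:26456453-26456582 (minus strand, 1 match) and Bst2 at chr8:71537473-71537602 (minus strand, 2 overlapping matches).
Isg15: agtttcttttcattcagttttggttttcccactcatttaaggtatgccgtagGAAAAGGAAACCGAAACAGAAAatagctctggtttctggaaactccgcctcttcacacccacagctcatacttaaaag
Ifit1: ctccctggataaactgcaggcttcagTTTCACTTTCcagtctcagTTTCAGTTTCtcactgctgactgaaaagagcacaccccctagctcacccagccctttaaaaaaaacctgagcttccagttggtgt
Rsad2: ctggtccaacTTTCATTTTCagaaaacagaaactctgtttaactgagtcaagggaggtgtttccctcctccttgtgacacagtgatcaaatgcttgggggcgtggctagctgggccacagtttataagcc
Bst2: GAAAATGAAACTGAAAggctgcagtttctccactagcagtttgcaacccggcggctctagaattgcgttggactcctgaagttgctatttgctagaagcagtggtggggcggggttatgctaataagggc

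On both strands of the 250 bases before the start, the ISRE letters were found in 19 of the 38 members with a RefSeq promoter (50%) and in 363 of the 10756 tested genes with one (3.37%). Of the 19 members with it, 8 had an unadjusted p under 0.05 on the lower side, with a median difference of -0.41, and of the 19 without it, 10 had, with a median of -1.04. A match describes the letters only, and a missing match says nothing about binding elsewhere.

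Isg15, a ubiquitin-like modifier, had 11.6 and 11.2 CPM in lacZ1 against 56.6 and 35.0 in shDnajb9, with 17.9 and 10.2 in lacZ2 against 7.77 and 8.22 in shRictor. The shDnajb9 libraries were the highest of the 8 and the shRictor libraries the lowest. It rose by 1.99 in the Dnajb9 arm (adjusted p = 0.000912) and stood at -0.80 in the Rictor arm (adjusted p = 0.102), a difference of -2.79 (SE 0.443, adjusted p = 0.122, edgeR). Isg15 passed without shDnajb9 replicate 2 (-3.11, adjusted p = 0.013) and without lacZ2 replicate 2 (-3.13, adjusted p = 0.0428).

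Rsad2, the antiviral enzyme viperin, had 52.8 and 59.3 CPM in lacZ1 against 188 and 105 in shDnajb9, with 58.0 and 55.1 in lacZ2 against 36.4 and 38.9 in shRictor. Ifi44 had 20.2 and 20.5 CPM in lacZ1 against 40.2 and 47.6 in shDnajb9, with 23.1 and 20.8 in lacZ2 against 12.5 and 15.4 in shRictor. Both genes showed the order seen for Isg15, with shDnajb9 above and shRictor below all 4 controls. Their differences were -1.97 (SE 0.388) and -1.77 (SE 0.325), each with an adjusted p of 0.163 (edgeR).

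Ifit1 and Ifit3, which bind foreign RNA, rose by 2.50 and 1.67 in the Dnajb9 arm (adjusted p = 0.000245 and 0.000382) and were at 0.52 and 0.24 in the Rictor arm, where neither passed. Bst2, the virus tether tetherin, and Irf7, a transcription factor of the interferon response, rose by 1.5 and 1.32 in the Dnajb9 arm (adjusted p = 0.00837 and 0.00981, edgeR). Their differences were -1.71 and -1.60. Irf7, like Psmb8 and Manf further on, overlaps another gene, and without a known strand setting the reads cannot be told apart. For Mx1, a dynamin-like restriction factor, and Zbp1, a sensor of nucleic acids, the share of the arms was the reverse. Mx1 fell by 1.31 in the Rictor arm (adjusted p = 0.00692) and stood at 0.08 in the Dnajb9 arm, and Zbp1 fell by 0.97 (adjusted p = 0.0145, edgeR) and stood at 0.26.

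Ifit2 and Oas1g were called in both arms in opposite directions. Ifit2 rose by 0.65 (adjusted p = 0.0435) and fell by 0.88 (adjusted p = 0.0144, edgeR), and its libraries ran from 17.5 and 19.5 CPM in shRictor, through 25.5 to 34.6 in the 4 controls, to 39.4 and 42.8 in shDnajb9. Oas1g, of the family that activates RNase L, rose by 1.20 (adjusted p = 0.0161) and fell by 1.08 (adjusted p = 0.0337, edgeR), but 45.7% of its sequence is shared with other genes, and 57.6% of that of Oas1a and 51.2% of that of Ifit3.

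The list did not move as one block. Stat2, Irf1, Cxcl9, Cxcl10 and the guanylate-binding and immunity-related GTPase genes Gbp2, Igtp, Irgm1 and Tgtp1 had differences between -0.29 and 0.32, and none of them had an unadjusted p under 0.05. Other guanylate-binding genes stood lower than Gbp2. Gbp3 was at -0.95 (unadjusted p = 0.0433, edgeR), Gbp6 at -0.64 and Gbp7 at -0.52 (unadjusted p = 0.156 and 0.273, edgeR). Of the sequence of Tgtp1, 81.2% is shared with other genes, so its counts are uncertain. Igtp, Tgtp1 and Irf8 were the 3 members that fell under the Dnajb9 hairpin, by 1.10, 1.36 and 0.75 (adjusted p = 0.0375, 0.0343 and 0.0351, edgeR). Summed over the list, the level was 6397 and 5995 CPM in shDnajb9, 3909 and 3759 in shRictor, 5078 and 5046 in lacZ1, and 4155 and 5789 in lacZ2. The shDnajb9 libraries lay above all controls and the shRictor libraries below them. Leaving out any 1 library left 22 to 26 members lower at an unadjusted p under 0.05, leaving out shDnajb9 replicate 1 and lacZ2 replicate 1 together left 27, and the correction for transcript length and GC content described further on left 23.

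**Figure D3:**
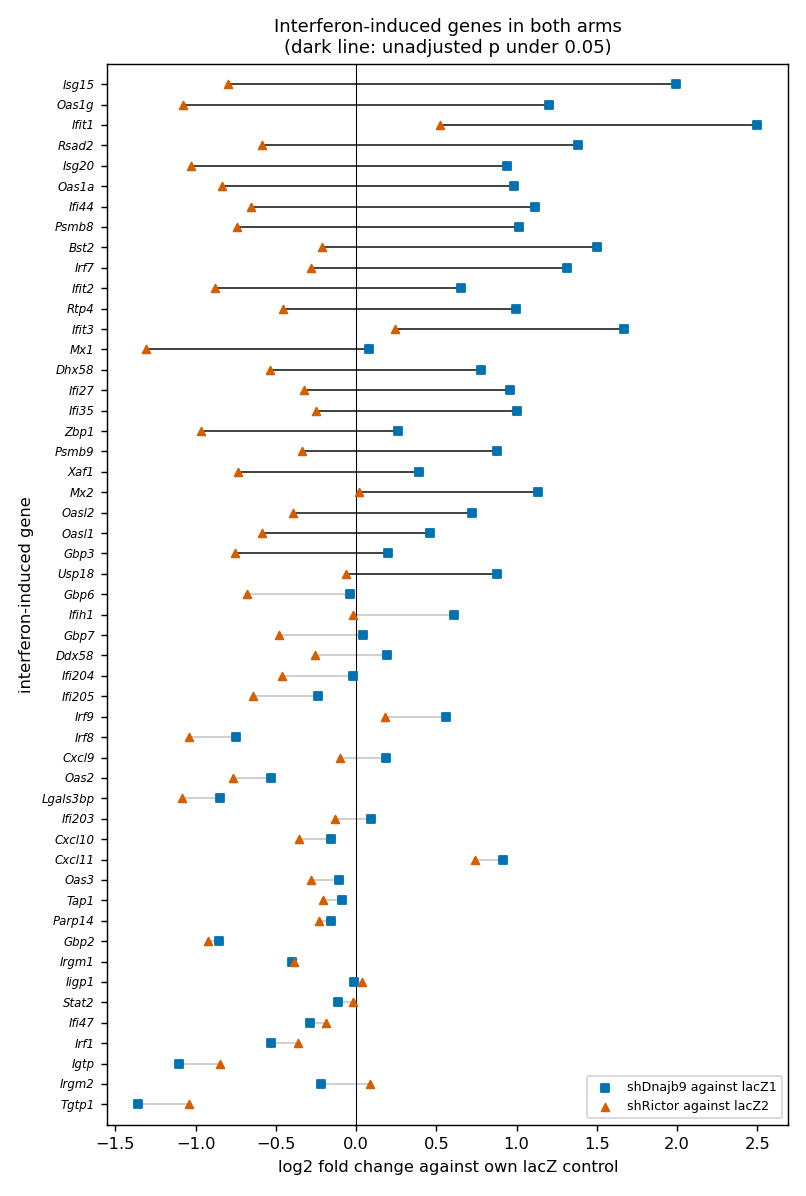
For 51 of the 52 tested interferon-induced genes, squares give the log2 fold change in shDnajb9 against lacZ1 and triangles that in shRictor against lacZ2, joined by a dark line where the difference had an unadjusted p under 0.05 (25 genes). From Isg15 at the top to Usp18 the squares lie to the right of the triangles, and below them the pairs lie close together.

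Macrophages and lymphocytes also express interferon-induced genes. The summed markers of Kupffer cells and macrophages stood at 2291 to 2599 CPM in the 4 controls, 1888 and 2151 in shDnajb9, and 1382 and 1574 in shRictor, so both hairpin groups lay below all controls, shRictor further. No marker of this list had a called difference (edgeR). At an unadjusted p under 0.05 there was 1 of 19 tested on each side (all genes: 5.4% higher and 5.46% lower). For T and NK cells the sums were 107 to 185 CPM in the controls, 64.2 and 96.0 in shDnajb9, and 91.6 and 78.1 in shRictor. None of the markers of either list was at 0 in all libraries. The part of these cells in the interferon-gene difference was not tested.

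Of the 45 ER chaperones and targets of the stress factors XBP1 and ATF6, 11 were lower in the Rictor arm at an unadjusted p under 0.05 and 2 were higher (all genes: 5.46% and 5.4%). The median difference of the list was -0.57. None passed the adjusted test (edgeR). In the Dnajb9 arm 16 rose and 0 fell (all genes: 11.6% and 12.6%), and in the Rictor arm 3 rose and 2 fell (all genes: 7.31% and 10.9%), no larger a share than over all genes. The 2 higher members were Dnajb9 itself and Ern1, which encodes IRE1. The 11 lower members were Sec61b, Srp54a, Ssr1 and Ssr2, which serve import into the ER, Edem2, Derl2 and Vimp, which serve the disposal of misfolded proteins, and Manf, Sdf2l1, Creld2 and Dnajc10. The count was 6 without lacZ1 replicate 1, shDnajb9 replicate 1 or shRictor replicate 2, 7 without lacZ2 replicate 2, and 10 to 15 without each of the others.

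Edem2 rose by 1.55 under the Dnajb9 hairpin (adjusted p = 0.00115) and stood at 0.14 under the Rictor hairpin (adjusted p = 0.755), a difference of -1.41 (SE 0.349, adjusted p = 0.318, edgeR). Manf, a secreted ER stress protein, rose by 1.30 and stood at -0.18, and Sdf2l1, a partner of BiP complexes, rose by 1.61 and stood at -0.04 (adjusted p = 0.00558 and 0.0107 in the Dnajb9 arm, edgeR). BiP itself, encoded by Hspa5, stood at 1.01 in the Dnajb9 arm (adjusted p = 0.0678) and at -0.10 in the Rictor arm. Its difference of -1.11 had a 95% interval of -2.27 to 0.04. Xbp1 differed by 0.33 (95% interval -0.60 to 1.25) and Ddit3, the stress factor CHOP, by -0.67 (95% interval -1.58 to 0.23), which became -0.02 with length and GC content corrected.

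The ER stress element (ERSE), which reads CCAAT, any 9 bases, CCACG, or on the opposite strand CGTGG, any 9 bases, ATTGG, is bound by ATF6. It was found in the 250 bases before the start of 9 of the 35 list members with a RefSeq promoter (25.7%) and of 18 of all 10756 (0.167%). Hspa5 (chr2:34771940-34772089, plus strand) and Creld2 (chr15:88819496-88819645, plus strand, GRCm38.p6) are shown as the central chaperone and as the lower member that carried the element, with 150 bases each and the match in capitals.
Hspa5: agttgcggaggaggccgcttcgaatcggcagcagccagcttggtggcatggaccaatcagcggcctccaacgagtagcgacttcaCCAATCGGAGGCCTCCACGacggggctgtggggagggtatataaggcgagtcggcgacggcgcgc
Creld2: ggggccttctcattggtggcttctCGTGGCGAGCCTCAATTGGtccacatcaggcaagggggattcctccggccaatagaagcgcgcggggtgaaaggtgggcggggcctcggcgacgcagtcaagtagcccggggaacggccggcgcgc

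Creld2, an ER-resident folding factor, differed by -1.08 (SE 0.348, unadjusted p = 0.0082, adjusted p = 0.407, edgeR) and passed in neither arm. The median difference was -0.69 over the 9 members with the element and -0.61 over the 26 without it, and 1 and 8 of them had an unadjusted p under 0.05 on the lower side.

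Proteasome subunits, which degrade tagged proteins, showed the lowest list median, -0.73 over 37 genes. At an unadjusted p under 0.05, 14 were lower and 0 higher (all genes: 5.46% and 5.4%), and none passed the adjusted test (edgeR). In the Dnajb9 arm 13 rose and 0 fell (all genes: 11.6% and 12.6%), while in the Rictor arm 0 changed in either direction. Psmb8, Psme2 and Psmb9, which encode 2 subunits and an activator that interferon induces, differed by -1.76, -1.37 and -1.21. Psmb8 had 96.1 and 114 CPM in lacZ1 against 270 and 156 in shDnajb9, with 93.6 and 127 in lacZ2 against 65.0 and 66.7 in shRictor. The core subunit gene Psma7 rose by 1.19 in the Dnajb9 arm (adjusted p = 0.0184, edgeR) and stood at -0.12 in the Rictor arm, a difference of -1.31. The count of 14 rested on single libraries: it was 3 without lacZ1 replicate 1, 4 without shDnajb9 replicate 1, 6 without shRictor replicate 2, 8 without lacZ2 replicate 2 and 23 without shDnajb9 replicate 2.

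Cytosolic ribosomal proteins and respiratory chain subunits, both encoded by short transcripts, had medians of -0.63 and -0.45. Of 45 ribosomal protein genes 5 were lower at an unadjusted p under 0.05, and of 48 respiratory chain genes 7 were, with 0 higher in both lists. Over all genes, 5.46% were lower and 5.4% higher at that level. In the Dnajb9 arm, where 11.6% of all genes rose and 12.6% fell, 6 ribosomal protein genes rose and 0 fell, a share of rises near that of all genes, and 22 respiratory chain genes rose and 1 fell. In the Rictor arm 0 rose in both lists, and 1 respiratory chain gene fell. The ribosomal count of 5 was 1 without lacZ1 replicate 1, shDnajb9 replicate 1, lacZ2 replicate 1 or shRictor replicate 2, 13 without lacZ2 replicate 2 and 15 without shDnajb9 replicate 2. The respiratory count of 7 was 2 without lacZ1 replicate 1, 3 without lacZ2 replicate 1, 4 without shDnajb9 replicate 1 or shRictor replicate 2, and 20 without shDnajb9 replicate 2.

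Transcript length moved with the difference over the whole transcriptome. Genes that were lower at an unadjusted p under 0.05 had a median longest transcript of 1921 bases, those that were higher 4706 bases, and all tested genes 3327 bases. Split into 5 bins of near equal gene number by length, the median difference ran from -0.38 in the shortest bin over -0.13, 0.00 and 0.09 to 0.32 in the longest. The Dnajb9 arm ran from 0.35 to -0.33 over the same bins, and the Rictor arm from -0.04 to 0.05. The share of reads without a unique alignment, which the deposited tables list and which did not enter the gene counts, was 41.3% and 42.0% in shDnajb9, 32.7% and 26.7% in shRictor, and 22.9% to 24.9% in the 4 controls. The part of read loss or RNA quality in the length trend was not tested.

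**Figure D4:**
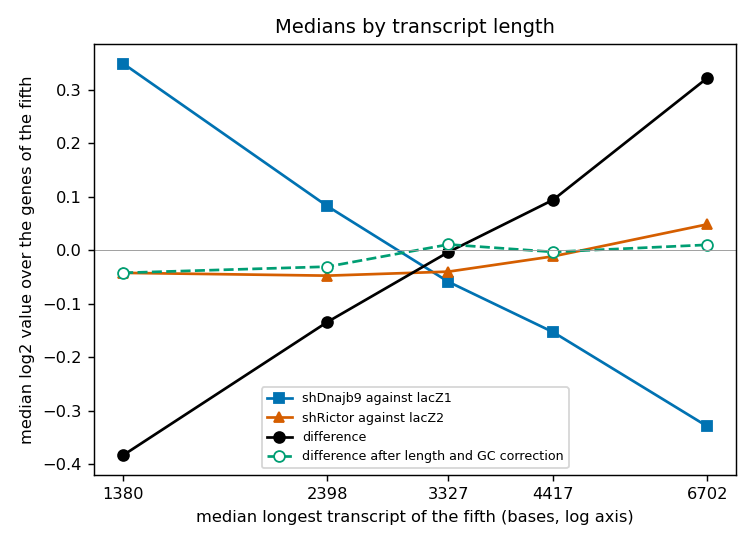
Median log2 values over the genes of each of 5 bins of longest transcript length (x axis, log scale), for both arms, their difference, and the difference after a per-library correction for length and GC content. The Dnajb9 arm falls from 0.35 to -0.33 with length while the Rictor arm stays between -0.05 and 0.05, and the corrected difference stays between -0.04 and 0.01.

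With length and GC content corrected in each library, Slc17a8 kept its difference (2.96, adjusted p = 0.0016, edgeR) and remained the only call. The interferon-induced genes had 23 lower members and a median of -0.61, and the ER list 11 lower and 1 higher and a median of -0.54. The proteasome list had 7 lower members and a median of -0.35, the ribosomal proteins 4 and -0.27, and the respiratory chain 3 and -0.09. Over all genes, 663 were then higher (4.82%) and 727 lower (5.28%) at an unadjusted p under 0.05. The respiratory chain, with 6.25% lower and 1 gene higher, was then near the share of all genes. Ndufb10, at -2.10 before, was at -1.63 after the correction. Among the panel of signalling and metabolic genes described next, Foxo1 then stood at 0.92, Insr at 0.64, Irs2 at 0.26 and Fasn at 1.38, against 1.40, 1.10, 0.76 and 2.20 before.

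**Figure D5:**
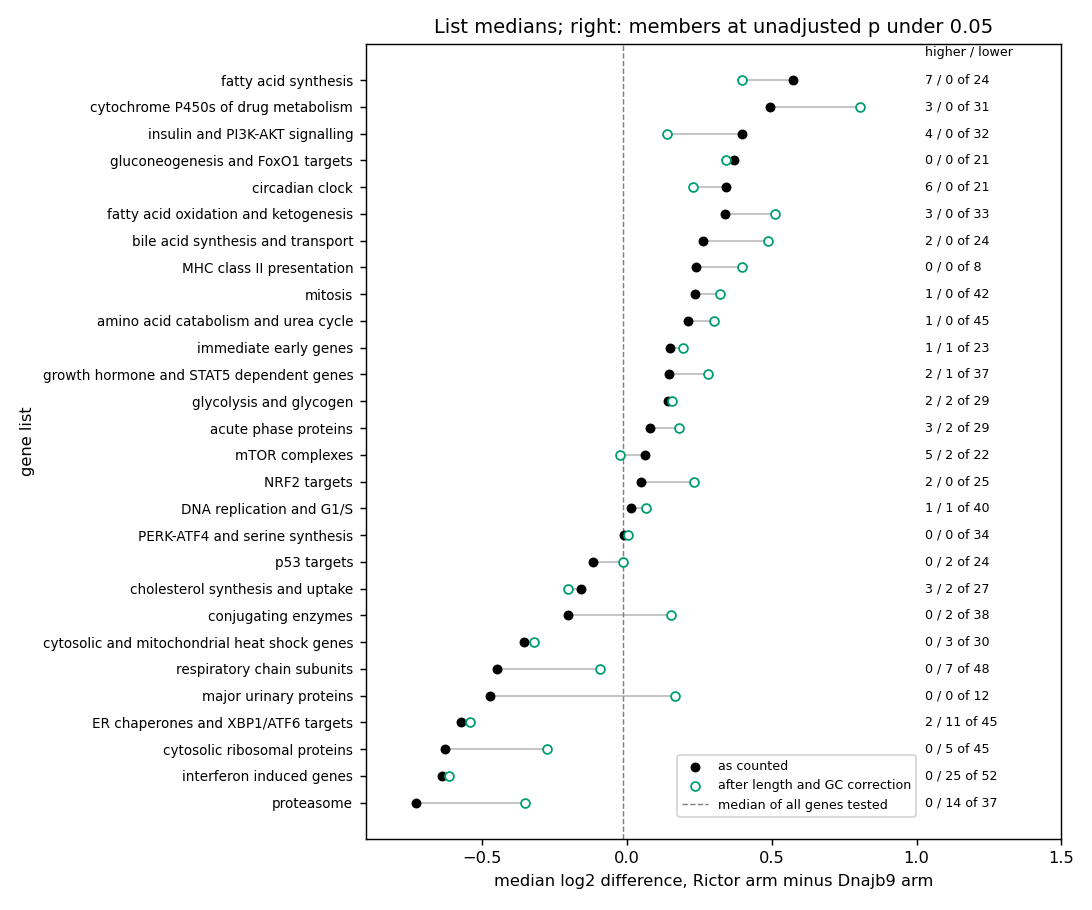
Median difference of each pathway list on the log2 scale as counted (filled) and after the length and GC correction (open), with the counts of members higher and lower at an unadjusted p under 0.05 at the right and the median of all genes as a dashed line. The interferon and ER lists hardly moved with the correction, whereas the proteasome, ribosomal protein and respiratory chain lists moved toward 0.

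Among mTOR complex genes no difference passed (edgeR), and of 22 genes 5 were higher and 2 lower at an unadjusted p under 0.05 (all genes: 5.4% and 5.46%), with a median of 0.06. Mtor, the kinase of both complexes, had 276 and 189 CPM in lacZ1 against 41.5 and 93.2 in shDnajb9, with 180 and 194 in lacZ2 against 107 and 297 in shRictor. The replicates of both hairpin groups were far apart. Mtor fell by 1.78 in the Dnajb9 arm (adjusted p = 0.0174) and stood at 0.11 in the Rictor arm, with a difference of 1.89 (SE 0.646, adjusted p = 0.409, edgeR). With length and GC content corrected the Mtor difference was 1.28. Deptor, an inhibitory subunit of both complexes, had 104 and 85.9 CPM in lacZ1 against 144 and 193 in shDnajb9, with 69.0 and 90.8 in lacZ2 against 347 and 347 in shRictor. It rose in both arms, by 0.83 (adjusted p = 0.0442) and 2.12 (adjusted p = 0.000414), and the difference was 1.29 (adjusted p = 0.394, edgeR).

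Rptor, which defines complex 1, and Mlst8, shared by both complexes, each differed by 1.17 (adjusted p = 0.445 and 0.431, edgeR), and with length and GC content corrected by 0.60 and 0.99. Mapkap1, another subunit particular to complex 2, differed by 0.19 (95% interval -0.46 to 0.84). The count of 5 higher members was 1 without shRictor replicate 2 and 2 without lacZ1 replicate 1 or shDnajb9 replicate 1.

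The kinases downstream had estimates from -0.16 to 0.03 as counted. Akt1 differed by -0.16 (95% interval -0.88 to 0.56), Akt2 by -0.16 (-1.0 to 0.69) and Sgk1 by 0.03 (-0.73 to 0.79). With length and GC content corrected, Akt1 was at -0.33, Akt2 at -0.44 and Sgk1 at 0.03. After the length and GC correction, 3 of 32 genes in the wider list of insulin and PI3K-AKT signalling were higher and 2 lower at an unadjusted p under 0.05 (all genes: 4.82% and 5.28%). Their median was then 0.14. As counted, 4 of the 32 were higher and 0 lower (all genes: 5.4% and 5.46%), with a median of 0.40. The 4 were Foxo1, Foxo3, Pik3r2 and Pik3cb, and the count was 2 without lacZ1 replicate 1, shDnajb9 replicate 1 or shRictor replicate 2, 7 without lacZ1 replicate 2 or shRictor replicate 1, and 9 without shDnajb9 replicate 2. Foxo1 had 51.2 and 42.3 CPM in lacZ1 against 26.6 and 41.6 in shDnajb9, with 39.5 and 35.0 in lacZ2 against 56.9 and 87.0 in shRictor. It rose by 0.95 in the Rictor arm (adjusted p = 0.0316), stood at -0.45 in the Dnajb9 arm, and differed by 1.40 (SE 0.395, adjusted p = 0.373, edgeR). The insulin receptor gene Insr rose by 1.24 in the Rictor arm (adjusted p = 0.0333) beside 0.13 in the Dnajb9 arm (adjusted p = 0.809), and the difference of 1.10 did not pass (adjusted p = 0.46, edgeR).

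Gluconeogenesis and FoxO1 target genes showed no difference detectable at this precision. Of 21 tested, 0 were called and 0 had an unadjusted p under 0.05 in either direction (edgeR), while 11 rose and 1 fell in the Dnajb9 arm (all genes: 11.6% and 12.6%), and 10 rose and 1 fell in the Rictor arm (all genes: 7.31% and 10.9%). G6pc, the glucose-6-phosphatase that releases glucose, stood at 1.99 and 2.45 in the 2 arms, both called (adjusted p = 0.00749 and 0.00276, edgeR), and the difference of 0.46 had a 95% interval of -0.85 to 1.77. Pck1, which encodes an enzyme of glucose synthesis, differed by 0.89 (-0.44 to 2.21) and Irs2, an insulin receptor substrate gene, by 0.76 (-0.28 to 1.80). These intervals hold a doubling and do not show that the hairpins acted alike.

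Fatty acid synthesis genes were higher in the Rictor arm in 7 of 24 at an unadjusted p under 0.05, with 0 lower (all genes: 5.4% and 5.46%). The median was 0.58, and none passed the adjusted test (edgeR). The 7 were Fads1, Fasn, Me1, Srebf1, Scd1, Acaca and Lpin1, enzymes of fatty acid synthesis and desaturation with their regulators. In the Rictor arm 14 of the 24 rose (all genes: 7.31%), and in the Dnajb9 arm 5 (all genes: 11.6%). Srebf1, which encodes SREBP1c, had 244 and 141 CPM in lacZ1 against 197 and 198 in shDnajb9, with 131 and 183 in lacZ2 against 311 and 522 in shRictor. It rose by 1.40 in the Rictor arm (adjusted p = 0.0159) and stood at 0.04 in the Dnajb9 arm, with a difference of 1.37 (SE 0.496, adjusted p = 0.411, edgeR). Fasn, the fatty acid synthase, had 733 and 455 CPM in lacZ1 against 265 and 568 in shDnajb9, with 317 and 258 in lacZ2 against 400 and 1455 in shRictor. In Fasn shRictor replicate 2 was far above the other libraries. Without it the count of 7 was 0, without shDnajb9 replicate 1 it was 3, and without either lacZ1 library it was 4.

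Clock genes were higher in 6 of 21 at an unadjusted p under 0.05 and lower in 0 (all genes: 5.4% and 5.46%). The median was 0.34, and none passed the adjusted test (edgeR). Hlf, a clock-controlled transcription factor, had 18.8 and 15.6 CPM in lacZ1 against 16.98 and 28.0 in shDnajb9, with 13.1 and 15.9 in lacZ2 against 42.9 and 45.9 in shRictor. It rose by 1.61 in the Rictor arm (adjusted p = 0.00141) beside 0.40 in the Dnajb9 arm (adjusted p = 0.285, edgeR). Usp2 and Per3 also rose in the Rictor arm, by 1.31 and 1.07 (adjusted p = 0.00733 and 0.0367, edgeR), and were at 0.21 and -0.05 in the Dnajb9 arm. The hour of killing is not in the labels used here, and its part in these values was not tested. The count of 6 was 1 without lacZ1 replicate 1, 3 without shDnajb9 replicate 1, lacZ2 replicate 1 or shRictor replicate 2, and 4 without lacZ2 replicate 2.

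The hairpin groups were finally set side by side without their controls. This comparison uses the same libraries as the difference and adds no independent evidence. Between shRictor and shDnajb9, 68 genes were called (0.494%), 26 higher (0.189%) and 42 lower (0.305%) in shRictor, and 66 of them had an unadjusted p under 0.05 for the difference. Interferon-induced genes made up 12 of the 42 lower genes, and 0 of the 26 higher ones: Isg15, Ifi44, Rsad2, Ifit1, Oas1g, Oas1a, Psmb8, Ifit3, Ifit2, Dhx58, Ifi35 and Mx2. The ER list gave Edem2 and Vimp lower and Dnajb9 higher. Between lacZ2 and lacZ1, 0 genes were called by edgeR, with 169 (1.23%) at an unadjusted p under 0.05, and DESeq2 called 1.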

How the data were processed

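Liver RNA of 8 libraries, 2 in each of 4 groups, had been sequenced after depletion of ribosomal RNA. The authors deposited raw read counts per gene. Cutadapt, HTSeq and the mouse build mm10 are named in the submitters' processing notes, while the aligner, versions, annotation and strand setting are not given in the sources used here. Gene counts summed to between 6426164 and 11383532 per library, and rows naming no gene were left out: 19.2% to 32.2% of all counted reads fell in no feature and 22.9% to 42.0% had no unique alignment.

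Genes were filtered with filterByExpr (minimum count 10) and scaled by TMM, and 1 model over all 8 libraries was fitted with edgeR 4.0.16 (R 4.3.3; robust quasi-likelihood test). The difference was shRictor minus lacZ2 less shDnajb9 minus lacZ1, with Benjamini-Hochberg adjustment over all 13767 genes, and "called" means an adjusted p under 0.05. With 2 libraries in a group no exact permutation test can reach that threshold. DESeq2 1.42.0, limma 3.58.1, other scalings and filters, replicate blocks and left-out libraries were alternatives, and the code was checked on simulated data. In 1 alternative shDnajb9 replicate 1 and lacZ2 replicate 1 were left out together. They had the lowest and the highest TMM factor (0.743 and 1.28). Their shares of reads in no feature were the smallest and the largest (19.17% and 32.25%). Both enter the difference with a negative sign, and the part of these traits in it was not tested. The length and GC correction and the crossed replicate numbers were chosen after seeing the data.

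Members and gene lists were chosen with earlier results of these data known. Named singly were both targets, the 10 genes on each side with the smallest unadjusted p (average log2 CPM of at least 1, no predicted gene, library differences of the arms not overlapping), up to 6 genes called in opposite directions, and a panel of mTOR, insulin and ER genes. Some genes are not reported here. Other list members were picked as examples after their values were seen. Gene positions came from GENCODE annotation of GRCm38, to which 98.3% of symbols matched, and genes sharing at least 20% of their 50-base stretches with another gene are given as uncertain.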

Additional observations from a re-analysis of the deposited data

Results flagged for a closer look

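Slc17a8 stood out because its 2 hairpin effects differed by the test of the difference itself, by 2.97 on the log2 scale (adjusted p = 0.0085, edgeR), with the hairpin libraries on opposite sides of overlapping controls. Reads without a unique alignment are listed in the tables but enter no gene count. They made up 41.6% ± 0.474 (SD, n = 2) of reads in shDnajb9 against 23.9% ± 1.41 (SD, n = 2) in lacZ1, and 29.7% ± 4.22 (SD, n = 2) in shRictor against 24.4% ± 0.255 (SD, n = 2) in lacZ2. In both arms each hairpin library exceeded both of its controls. Groups of 2 are too small for a check of single outlying libraries.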

How the results depend on the processing

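The number of genes with a called difference (1, Slc17a8) was 395 with no low-count filter, 43 with DESeq2, and 0 without shDnajb9 replicate 1 and lacZ2 replicate 1 (5 with these left out and length and GC corrected). Leaving out 1 library gave 0 to 17. Calls between hairpin groups (68) were 21 with total counts, 1109 unfiltered, 18 against a 1.5-fold difference, 261 at an adjusted p under 0.1, 449 with DESeq2, 43 with limma-voom, 22 with both libraries out, 149 with length and GC corrected, 113 with both changes, and 8 to 1051 with 1 library out. Control calls (0) were 13 unfiltered, 1 with DESeq2 and 0 to 1 with 1 library out. Calls in the Dnajb9 arm were 1314 against a 1.5-fold difference, 1678 with both libraries out and 988 to 4157 with 1 out, and in the Rictor arm 1120 and 1062 to 2975 for the first and last of these. Genes at an unadjusted p under 0.05 on the higher side (744) were 447 with total counts, 1202 unfiltered, 364 against a 1.5-fold difference, 445 with both libraries out and 230 to 1516 with 1 out, and on the lower side (751) 365, 319 and 322 to 1475 for the last 3.

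The labels do not say that replicate numbers pair samples, and the correlation of same-numbered deviations was -0.30 for lacZ1 with shDnajb9, -0.032 for lacZ2 with shRictor, 0.20 for lacZ1 with lacZ2 and 0.32 for shDnajb9 with shRictor, so not every pair exceeded 0.1. A replicate block shared by both arms gave 3 called differences and 104 hairpin calls, and a block within each arm gave 0 and 1, with 2184 calls in the Dnajb9 arm, 453 genes on the higher side, and 12 hairpin calls with length and GC corrected. With numbers crossed in the Dnajb9 arm the counts were 93 differences, 41 hairpin calls, 2 control calls and 1173 genes on the higher side. The sign of Rictor turned with the shared block (0.0088), the block within arms (0.028), crossed numbers (0.017) and limma-voom (0.028), and ran from -0.44 to 0.49 with 1 library out.

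With 1 library out Akt1 ran from -0.30 to 0.051, Akt2 from -0.47 to 0.24, Sgk1 from -0.20 to 0.32, G6pc from -0.10 to 1.43 and Xbp1 from -0.0104 to 0.60. With both libraries out Akt1 was at 0.10, Akt2 at 0.32, Sgk1 at -0.20 and G6pc at -0.28, and with length and GC also corrected Akt2 was at 0.057, Sgk1 at -0.13, G6pc at -0.14 and Ddit3 at 0.12. Over 40 genes named singly, 898 values kept direction and side of the threshold, 75 passed newly, 5 no longer passed and 22 turned sign. The cause of these shifts was not tested. Depth and 2 libraries a group limit the difference to a median distance of 0.884 on the log2 scale from estimate to 95% bound.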

Other observations

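Several further lists held members on the higher side, none past the adjusted test (edgeR). At an unadjusted p under 0.05, 5.4% of all genes were higher and 5.46% lower. Whether counts this small differ from that share was not tested. Of 29 acute phase genes 3 were higher and 2 lower, with the metallothionein genes Mt1 and Mt2, which bind zinc and copper, at 1.98 and 1.72. Of 33 genes of fatty acid oxidation and ketogenesis 3 were higher and 0 lower, among them Cpt1a, the gate of fatty acid entry into mitochondria, at 1.52 and the regulator Ppara at 1.07. Pericentral hepatocyte markers gave 3 higher of 20 with a median of 0.48, among them the Wnt-responsive genes Tbx3 at 1.57 and Axin2 at 1.22. The members of that list ran from -0.29 for Slc1a4 to 1.57 for Tbx3, with Glul and Cyp1a2 at 0.26. Periportal markers had a similar median, 0.45, with 1 higher of 16 and 0 lower, so the shift was not particular to the pericentral list. Tbx3 overlaps an antisense gene, and its reads cannot be told apart from that gene's.

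Neutrophil markers had their highest summed level in controls, at 177 to 273 CPM. The sums were 46.7 and 51.3 in shDnajb9 and 36.0 and 62.1 in shRictor. Lcn2 made up most of the sum in the controls, with 206 and 195 CPM in lacZ1 and 232 and 145 in lacZ2. It had 38.8 and 32.5 CPM in shDnajb9 and 16.8 and 42.2 in shRictor, and differed by -0.17 (adjusted p = 0.928, edgeR). The difference of the arms was positive for 5 of 11 neutrophil markers tested and negative for 0 at an unadjusted p under 0.05 (all genes: 5.4% and 5.46%, edgeR). The summed hairpin levels overlapped. These 5, Ltf, Prtn3, Ngp, Mpo and Mmp8, lay at 0 to 0.685 CPM in shDnajb9. Ltf had 10.99 and 1.67 CPM in the 2 lacZ1 libraries. The list median of 1.77 was 0.80 without lacZ1 replicate 1 and 3.16 without lacZ2 replicate 1.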
